A study of Mus musculus with 19 samples.

Results

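Loss of Lin28a was examined in mouse embryonic stem cells that already lacked Trim71, by comparing 5 KO-KO libraries (genotype Trim-/- - Lin28a-/-) with 4 KO-WT libraries (Trim-/- - Lin28afl/fl). These 9 libraries were taken by their genotype labels from the 19 of the series, which also holds cells with an intact, floxed Trim71. A KO-WT library from a day of its own was left out, because it held the average of its group and nothing of its own. Both groups were male C57BL/6 cells grown with foetal calf serum and leukaemia inhibitory factor (LIF), and magnetic beads were used to enrich cells with the stem cell antigen SSEA-1. Both had lost Trim71 through 500 nM 4-hydroxytamoxifen given for 2 days, followed by at least 7 further days of culture. The control group carried floxed Lin28a alleles and not wild-type ones. The KO-KO libraries came from clones 1-4 and C1 and the KO-WT libraries from clones 1 and E3, so Lin28a state and clone cannot be told apart. RNA was sequenced after polyadenylated-RNA library preparation, and each value is a deposited log2 level per gene from which differences between harvest days had been removed. Depth per library is unknown.

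LIN28A is an RNA-binding protein of early embryonic cells. It binds precursors of the let-7 microRNAs, recruits enzymes that add uridines to them and so keeps mature let-7 scarce, and it also binds many mRNAs, among them mRNAs translated at the endoplasmic reticulum. TRIM71 is an RNA-binding ubiquitin ligase whose own mRNA is a classical let-7 target, so both proteins sit in the circuit that holds stem cells in an early state.

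The sequences behind this circuit are short. RefSeq (GRCm38.p6) listed 11 mature mouse microRNAs with the let-7 seed, the bases that pair with a target mRNA. They are shown by 3 members, with the seed at bases 2 to 8 in capitals, from chr9:106178846-106178867 (plus strand), chr13:48538239-48538260 (minus strand) and chrX:151913229-151913250 (plus strand).
let-7g-5p: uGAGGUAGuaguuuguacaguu
let-7a-5p: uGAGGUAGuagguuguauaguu
miR-98-5p: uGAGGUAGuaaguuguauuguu
The 3 differ outside the seed and share all of it. LIN28 proteins are known to grip a GGAG motif in the loop of the precursor, and GGAG was found downstream of the 5′ arm in 9 of 12 hairpins; Mirlet7b, Mirlet7c-2 and Mir98 had none there. The hairpin of Mirlet7g (chr9:106178840-106178927, plus strand) is shown with that motif in capitals.
Mirlet7g: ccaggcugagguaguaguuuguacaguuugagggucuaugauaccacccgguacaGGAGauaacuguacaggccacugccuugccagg
Mature microRNAs were not measured in these libraries, which hold levels of genes only.

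The targeted genes were looked at first, with Lin28a as a check of its label. Lin28a stood at 8.21, 8.23, 8.30, 8.31 and 8.36 in KO-KO replicates 1 to 5 and at 9.80, 9.83, 9.996 and 9.74 in KO-WT replicates 1 to 4. Every KO-KO library lay below every KO-WT library, and the difference was -1.56 ± 0.0752 (SE, limma adjusted p = 3.7e-10). The transcript was therefore lower but not absent, and the labels do not say which part of the gene was deleted. Trim71 stood at 9.28, 9.05, 9.24, 9.25 and 9.55 in KO-KO and at 8.77, 8.96, 9.06 and 8.79 in KO-WT. Its transcript was not absent either, and since both groups are labelled as lacking Trim71, these values do not check that label. KO-KO replicate 2 overlapped the KO-WT libraries, and the difference of 0.38 ± 0.111 (limma adjusted p = 0.011) lost its call without KO-WT replicate 1 (adjusted p = 0.055), with days 2 to 4 alone (0.14) and after removal of a trend with GC content and length (0.11). Lin28b, the paralog that acts on the same precursors, stood at 8.14, 7.98, 8.05, 7.85 and 7.88 in KO-KO and at 7.605, 7.79, 7.52 and 7.92 in KO-WT. The groups overlapped through KO-WT replicate 4, and a difference of 0.27 ± 0.100 had a limma adjusted p of 0.038. That call was lost without KO-KO replicate 1, 2 or 3, without KO-WT replicate 1 or 3, or without WT-KO replicate 1 (adjusted p from 0.052 to 0.17). With days 2 to 4 alone the adjusted p was 0.058, and with days 1 and 5 alone the difference was 0.05 (adjusted p = 0.79).

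Beyond the targeted genes, 42.8% of the 14988 genes tested were called at an adjusted p under 0.05, 20.8% higher and 22% lower in KO-KO. Most of these differences were small, with a median size of 0.31 on the log2 scale against a median standard error of 0.0747. The larger ones lay on one side: 190 genes fell at least 2-fold and 17 rose at least 2-fold; 33 fell at least 4-fold, while the largest rise, of Myo1f, was 2.94-fold. With 16 units added before the log, which damps low levels, 97 fell and 5 rose at least 2-fold and 22 fell at least 4-fold. Of the 190, 71 belong to at least 1 of the 46 gene lists used here, and 23 are predicted genes. KO-KO and KO-WT libraries did not overlap in 188 of the 190, as in 86.7% of all genes called and 40.7% of all genes tested, so the absence of overlap in single genes below is a description. In 31 of the 190 at least 3 of the 5 KO-KO libraries, and in 20 all 5, lay under the minimum for testing (log2 of 10), and those 20 were tested only through libraries of other groups. Within the KO-KO group, replicate 1 was the highest of the 5 libraries in 110 of the 190 genes and replicate 5 in 48; both came from clone 1-4. All 190 were called with clones E3 and C1 alone (days 2 to 4), and 176 with clones 1 and 1-4 alone (days 1 and 5), where KO-WT has a single library and takes its spread from the other genotypes.

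**Figure D1:**
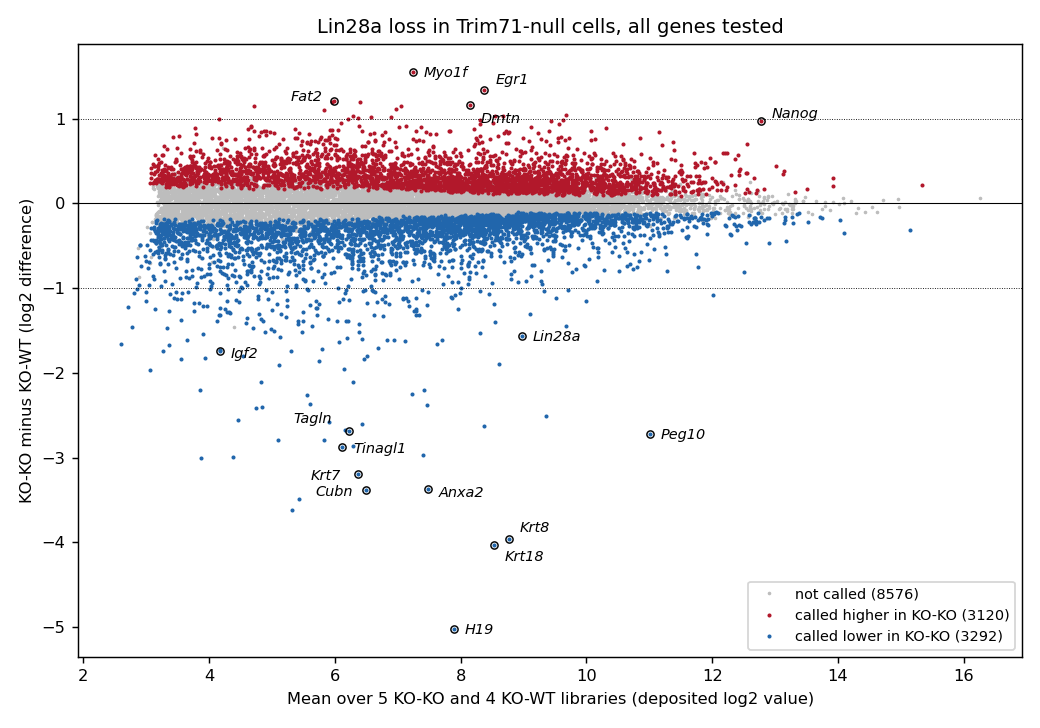
Log2 difference of KO-KO minus KO-WT (vertical axis, log2) against the mean deposited log2 value over the 9 libraries (horizontal axis), 1 point per gene tested; genes called higher are red, genes called lower blue, dotted lines mark 2-fold, and 16 genes are circled and named. The lower side reaches H19 at -5.02, while the upper side ends at Myo1f with 1.55.

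H19, an imprinted long non-coding RNA, headed the genes that fell. Its levels were 5.85, 5.79, 5.68, 5.75 and 5.22 in KO-KO and 10.77, 10.70, 10.76 and 10.49 in KO-WT. All KO-KO libraries lay far below all KO-WT libraries, KO-KO replicate 5 lowest, a 32.5-fold difference (limma adjusted p = 9.6e-13). Krt8 and Krt18 followed, the pair of keratins that form the filaments of simple epithelia. Krt18 read 7.24, 6.61, 6.52, 6.69 and 6.61 in KO-KO against 10.89, 10.57, 10.70 and 10.89 in KO-WT. Krt8 read 7.47, 6.92, 6.72, 7.05 and 6.91 against 11.02, 10.74, 10.90 and 11.23. In both genes KO-KO replicate 1 was the highest of its group and still stood more than 3 log2 units below every KO-WT library; the differences were -4.03 ± 0.147 and -3.96 ± 0.152. Their genes are neighbours on chromosome 15 with 0 genes between them in RefSeq. Krt7 (-3.20) and Krt19 (-2.60), other simple-epithelial keratins, fell as well.

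The keratin and junction list had 30 members tested, of which 18 fell and 4 rose, with a median difference of -0.23 against -0.00 for all genes tested. Krt20, counted among the 18, lay under the minimum for testing in at least 3 KO-KO libraries. The desmosomal genes Dsp (-1.12) and Dsc2 (-1.13, or -0.74 with 16 units added before the log) fell. Core junction genes gave other values: E-cadherin, Cdh1, differed by 0.05, and neither it nor the tight-junction genes Tjp1 (-0.02) and Ocln (0.11) passed the test. Krt17 (0.52), a keratin of stratified epithelium, and Esrp1 (0.43), a splicing factor of epithelia, were among the 4 that rose.

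Cubn, which encodes the endocytic receptor cubilin of visceral endoderm and kidney, stood at 5.51, 4.95, 4.64, 4.81 and 5.01 in KO-KO and at 8.36, 8.13, 8.12 and 8.87 in KO-WT. The groups lay apart by more than 2 log2 units, with a difference of -3.39 ± 0.204 (limma adjusted p = 4.1e-09). Dab2, an adaptor for endocytosis of such receptors, fell by 2.79, and Lrp2, which encodes the partner receptor megalin, fell by 1.89. In the primitive endoderm list 18 of 20 tested members fell and the other 2 did not pass the test, with a median of -1.31, or -0.80 with 16 units added before the log. Amn (-1.04) and Foxq1 (-1.27), counted among the 18, lay under the minimum for testing in all 5 KO-KO libraries, so they were tested only through groups in which they are higher. The genes of the transcription factors that define that lineage fell too, Gata4 by 1.71 and Gata6 by 1.32, as did Pdgfra, a receptor that marks these cells, by 1.41. Gata6 read 3.86, 3.55, 3.44, 3.45 and 3.65 in KO-KO and 4.91, 4.70, 4.74 and 5.28 in KO-WT, near the lower end of the genes tested and without overlap; with 16 units added its difference was -0.72, and that of Pdgfra was -0.86. Sox7 (-0.12) and Lama1 (-0.23, limma adjusted p = 0.055) did not pass the test. Lama1 was called lower in 13 alternatives, reaching -0.40 after removal of the trend with GC content and length. The defining markers Sox17 and Foxa2 were not tested, because fewer than 4 libraries reached the minimum. Foxa2 lay under it in both groups. Sox17 ran from 2.38 to 2.66 in KO-KO and from 3.02 to 3.59 in KO-WT, where its highest value lay above the minimum.

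The trophectoderm list, for the outer layer of the blastocyst that forms the placenta, had 18 members lower and 1 higher of 23, with a median of -1.13 (-0.63 with 16 units added). Besides the keratins it held Tinagl1 (-2.88), a matrix glycoprotein, Peg10 (-2.72), a retrotransposon-derived gene needed in the placenta, and the transcription factors Hand1, Gata3 and Ascl2. Hand1 stood at 4.23, 3.73, 3.74, 3.67 and 3.91 in KO-KO and at 6.64, 6.44, 6.73 and 6.78 in KO-WT. The groups did not overlap, and the difference was -2.79 ± 0.132. Plac1 (-1.23, or -0.37 with 16 units added), a placental gene, passed the minimum for testing through libraries of other groups and lay under it in all 5 of KO-KO. Gata3 fell by 1.46 (difference of -0.92 with 16 units added) and Ascl2 by 1.39. Eomes (-0.00) and Tfap2c (-0.10) did not pass the test, and Cdx2, Elf5 and Tfap2a were below the minimum for testing. The exception in the other direction was Phlda2, an imprinted gene that restrains placental growth, at 0.73.

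Marker lists for other cell types were summed on the linear scale to show how they moved with these genes. Of 11 trophectoderm markers, 7 were tested and 6 fell, Plac1 among them, and their sum ran from 312 to 466 units in KO-KO and from 3723 to 4802 in KO-WT. Krt8 and Krt18 made up most of it, and without both the sum ran from 115 to 137 and from 455 to 561. Of 11 primitive endoderm markers, 7 were tested and 5 fell, and their sum ran from 1390 to 1726 against 2181 to 2922. Lama1 held 1261 to 1551 of the KO-KO sum and 1535 to 1977 of the KO-WT sum, and without it the others ran from 120.2 to 175 and from 598 to 945. For feeder fibroblasts 4 of 10 markers were tested and 2 fell, with sums of 99.7 to 118 against 128 to 140, Pdgfrb being below the minimum. Col1a2, counted among the 2, lay under that minimum in at least 3 KO-KO libraries. The 7 stem cell markers, 6 of them tested, summed to 22964 to 24515.5 in KO-KO and 18713.3 to 19487.3 in KO-WT; 2 rose and 1 fell. That gap was carried by Nanog, without which the sums were 13877 to 14740 and 14246 to 14604 and overlapped. The ranges of Lama1 alone overlapped too, and the other ranges of this paragraph did not overlap between the groups. The part of other cell types in the differences was not tested, and in bulk RNA fewer cells of a type and less RNA per cell cannot be told apart.

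**Figure D2:**
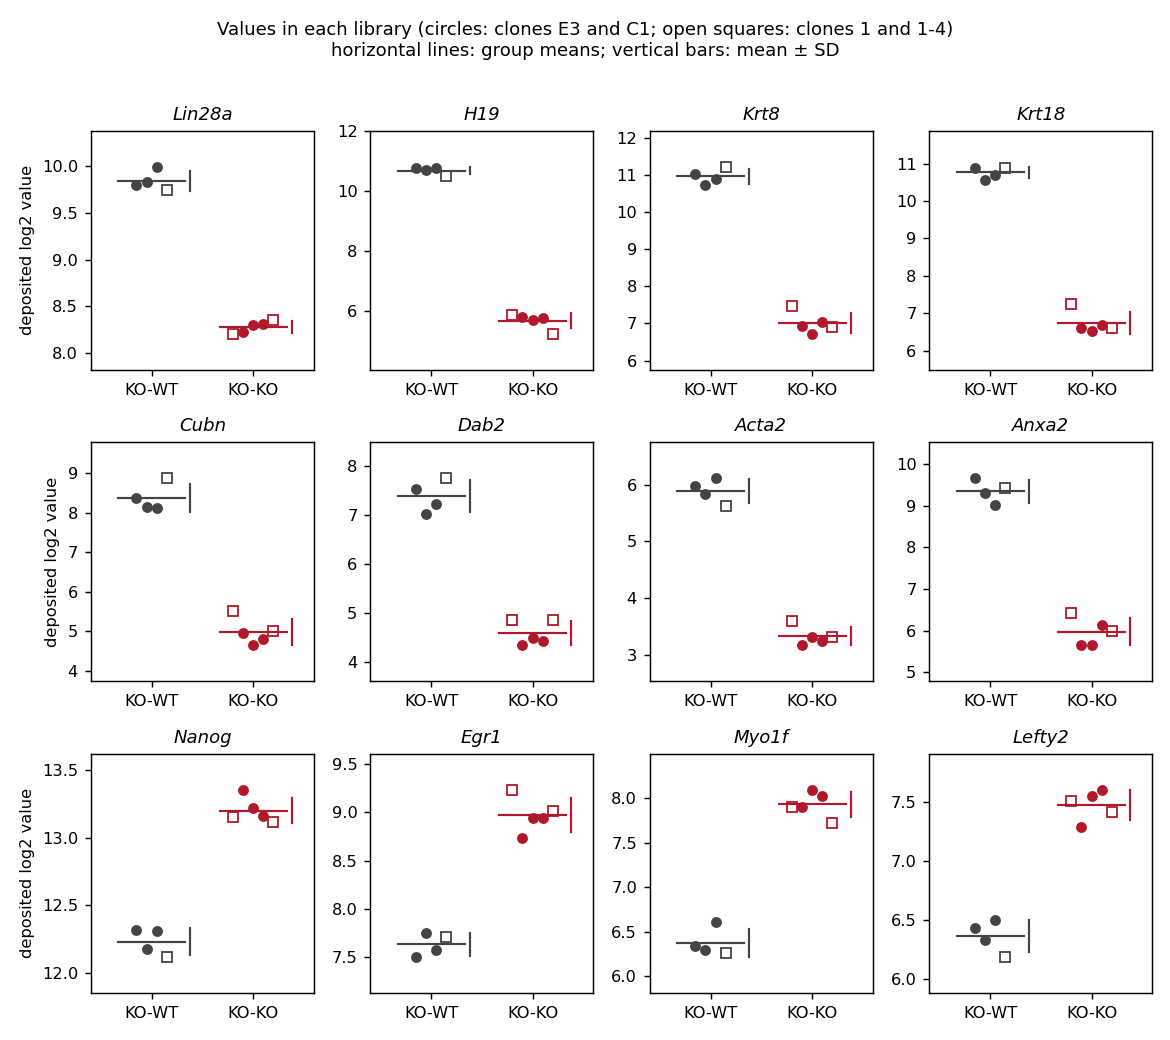
Deposited log2 value (vertical axes, each panel on its own range) of 12 genes in each KO-WT and KO-KO library, with 1 symbol per library (circles for clones E3 and C1, open squares for clones 1 and 1-4), lines at the group means and bars for the mean ± SD (n = 4 and 5). H19, Krt8, Krt18 and Cubn sit lower in all 5 KO-KO libraries, and Nanog sits higher in all 5.

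Anxa2, an annexin that binds membrane phospholipids and the actin cortex, was also among the genes that fell most, and stood at 6.43, 5.67, 5.65, 6.14 and 5.99 in KO-KO and at 9.66, 9.30, 9.01 and 9.43 in KO-WT. The groups did not overlap, and the difference was -3.37 ± 0.181 (limma adjusted p = 1.2e-09). Anxa3 (-2.67) and Anxa1 (-2.58) fell too. The type IV collagen genes Col4a1 (-2.51) and Col4a2 (-2.63), which share a promoter region on chromosome 8, headed the basement membrane list, where 12 of 25 members fell and 4 rose, with a median of -0.17 (-0.29 after removal of the trend with GC content and length). Sparc (-1.08), a matrix-binding glycoprotein, and the integrin chain Itgb1 (-0.65) fell. Of the 4 that rose Fn1, which encodes fibronectin, did so by 0.58. In the list of fibrillar matrix and fibroblast genes 6 of 13 fell and 3 rose, with a median of -0.06. Bgn and Col1a2, counted among the 6, lay under the minimum for testing in at least 3 KO-KO libraries. The median turned to 0.03 after removal of the trend with GC content and length and to 0.02 without KO-WT replicate 3.

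The list of smooth muscle and SRF genes covers contractile proteins whose genes are classically switched on by serum response factor when actin polymerises. Acta2, smooth muscle actin, stood at 3.60, 3.17, 3.32, 3.25 and 3.31 in KO-KO and at 5.98, 5.83, 6.11 and 5.63 in KO-WT. It showed no overlap, with a difference of -2.56 ± 0.136, or -1.52 with 16 units added. Acta2 lay under the minimum for testing in at least 3 of the KO-KO libraries, and Fhl2 (-1.24) in all 5. Tagln (transgelin, which binds actin filaments) fell by 2.68. The tropomyosin genes Tpm1 (-1.15), Tpm2 (-1.10) and Tpm4 (-1.03) fell, as did Zyx (-0.93) and Csrp1 (-0.92). In all, 25 of 29 members fell and 1 rose, with a median of -0.92. The member that rose, Flna (0.15), lost its call without any 1 of 11 libraries, among them KO-KO replicates 1 to 4 (adjusted p from 0.050 to 0.20), and after removal of the trend with GC content and length (0.01, adjusted p = 0.93). That list holds annexin, S100 and galectin genes put in with earlier results of these libraries known; without them 18 of 22 fell and 1 rose, and the median was -0.51. Vcl (0.02), Myl9 (0.17) and Actb (-0.08) did not pass the test. Of 6 smooth muscle markers 4 were tested and 4 fell, with sums of 209 to 248 in KO-KO and 518 to 605 in KO-WT, while Myh11 and Actg2 were below the minimum.

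Targets of YAP and TEAD, the transcription factors held back by Hippo signalling, were lower in 12 of 20 and higher in 1, with a median of -0.41, or -0.27 after removal of the trend with GC content and length. Ctgf, a matricellular protein, stood at 7.82, 7.43, 7.63, 7.42 and 7.84 in KO-KO and at 9.09, 9.04, 9.20 and 9.31 in KO-WT. Its libraries did not overlap, and the difference was -1.53 ± 0.114. F3 (tissue factor, -1.58), the receptor kinase gene Axl (-1.42) and Cyr61 (-1.40) fell by similar amounts. Tead1 (-0.01) and Tead4 (-0.18), which encode DNA-binding partners of YAP, did not pass the test; Tead4 was called lower in 10 alternatives. Of 20 immediate early genes 16 fell and 1 rose, median -0.61. Klf6 (-1.25), Dusp1 (-0.94) and Jun (-0.84) fell. The exception was Egr1, a zinc-finger factor induced by ERK signalling, which stood at 9.24, 8.73, 8.94, 8.94 and 9.01 in KO-KO and at 7.50, 7.75, 7.57 and 7.71 in KO-WT. It was higher in every KO-KO library than in any KO-WT library, by 1.34 ± 0.130.

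Since these lists are defined by DNA-binding factors, the 250 bases upstream of the annotated starts were searched on both strands for 3 motifs. They were GGAATG (the TEAD motif), TGANTCA (AP-1) and the CArG box of SRF, which is CC, 6 letters of A or T, and GG. Of 10733 tested genes with a promoter in RefSeq, 12.8% held GGAATG, 5.07% held TGANTCA and 1.36% held a CArG box. A match is a description of the letters and not a bound site. GGAATG was found in 6 of 12 promoters of the YAP and TEAD list (50%), and a CArG box in 7 of 25 of the smooth muscle and SRF list (28%). Among the 125 promoters of genes that fell at least 2-fold, the shares were 18.4%, 10.4% and 4%. The promoters of Cyr61, Anxa2 and Vcl show the range, with motifs in capitals: Cyr61 (RefSeq Ccn1, chr3:145649986-145650235, minus strand) with GGAATG on the opposite strand, Anxa2 (chr9:69453433-69453682, plus strand) with TGANTCA, and Vcl (chr14:20929148-20929397, plus strand) with a CArG box and GGAATG.
Cyr61: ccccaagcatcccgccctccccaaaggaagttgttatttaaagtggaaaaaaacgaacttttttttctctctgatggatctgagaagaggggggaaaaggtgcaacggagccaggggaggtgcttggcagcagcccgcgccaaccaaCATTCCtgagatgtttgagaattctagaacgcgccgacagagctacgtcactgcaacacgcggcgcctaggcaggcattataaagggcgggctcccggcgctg
Anxa2: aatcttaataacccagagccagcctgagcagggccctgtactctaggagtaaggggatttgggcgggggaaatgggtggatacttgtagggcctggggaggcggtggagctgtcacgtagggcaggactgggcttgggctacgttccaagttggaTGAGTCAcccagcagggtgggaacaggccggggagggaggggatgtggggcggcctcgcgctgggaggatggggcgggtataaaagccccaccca
Vcl: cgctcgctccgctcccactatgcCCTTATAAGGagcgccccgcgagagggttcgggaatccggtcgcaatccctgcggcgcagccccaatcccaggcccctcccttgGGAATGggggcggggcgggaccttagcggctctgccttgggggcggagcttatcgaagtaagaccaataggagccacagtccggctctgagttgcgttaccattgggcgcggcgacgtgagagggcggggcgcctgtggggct
Cyr61 (-1.40) and Anxa2 (-3.37) fell, while Vcl did not pass the test, so a match in this window went with differing values.

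The genes that rose did so by smaller amounts. Myo1f, an unconventional myosin of leukocytes, stood at 7.90, 7.90, 8.09, 8.03 and 7.72 in KO-KO and at 6.34, 6.29, 6.61 and 6.26 in KO-WT. The groups did not overlap, and the difference was 1.55 ± 0.102 (limma adjusted p = 9.7e-09). Chac1, which degrades glutathione and is induced by ATF4, stood at 6.97, 6.88, 7.04, 6.86 and 6.88 against 5.20, 5.57, 6.21 and 5.94. Its KO-KO libraries were close together and its KO-WT libraries spread over a full log2 unit, without overlap, and the difference was 1.19 ± 0.197. Fat2 (1.21), an atypical cadherin, and Tenm3 (1.15) and Tenm4 (1.02), teneurin adhesion receptors, also rose. So did She (1.19), an adaptor with an SH2 domain, Dmtn (1.16), which bundles actin, Acacb (1.03), an acetyl-CoA carboxylase, and Notch4 (1.02). Among 12 cadherins and protocadherins 6 rose and 2 fell, with a median of 0.25, or 0.08 after removal of the trend with GC content and length.

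Genes of naive pluripotency, the state of the pre-implantation epiblast, were higher in 14 of 21 and lower in 3, with a median of 0.41. Nanog stood at 13.15, 13.36, 13.22, 13.16 and 13.12 in KO-KO and at 12.32, 12.18, 12.31 and 12.12 in KO-WT. All KO-KO libraries lay above all KO-WT libraries, by 0.97 ± 0.0772 (limma adjusted p = 8.4e-08). Prdm14, which represses formative genes and DNA methyltransferases, rose by 0.86, as did the nuclear receptor gene Nr5a2. Tcl1 (0.85), Dppa3 (0.67), Esrrb (0.60), Tbx3 (0.57), Klf5 (0.57), Klf4 (0.53) and Tfcp2l1 (0.50) rose. Gbx2 (-0.68) and Socs3 (-0.63), both induced by LIF, were among those that fell, and Klf2 (-0.09) and Zfp42 (0.09) did not pass the test. In the core list 6 of 16 rose and 3 fell, the deleted Lin28a among the 3 (1 after removal of the trend with GC content and length). Pou5f1 (0.06) and Sox2 (-0.07) did not pass the test.

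Formative and primed genes, which mark the epiblast after implantation, were lower in 12 of 21 and higher in 3, with a median of -0.38. Otx2, a homeobox factor of that state, stood at 4.41, 4.10, 4.21, 4.32 and 4.47 in KO-KO and at 5.55, 5.31, 5.13 and 5.58 in KO-WT. It did not overlap, and the difference was -1.09 ± 0.135 (-0.70 with 16 units added). Pou3f1 (-0.97) and the Wnt receptor gene Fzd2 (-0.89) fell, and Zic5 (0.91), Zic2 (0.72) and Etv5 (0.39) rose. All 3 genes of the de novo DNA methylation machinery in the list fell: Dnmt3l by 0.75, Dnmt3a by 0.59 and Dnmt3b by 0.52. Tet1 (0.71) and Tet2 (0.77, or 0.39 in clones 1 and 1-4 alone), which oxidise methylcytosine, rose, as did Dnmt1 (0.37), the maintenance methyltransferase, and its partner Uhrf1 (0.28). Among all 22 members of the DNA methylation list 8 rose and 6 fell. Ctcfl, counted among the 6, lay under the minimum for testing in all KO-KO libraries. Methylation itself was not measured.

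Signalling genes gave mixed lists with clear members. In the Nodal and Activin list 10 of 20 rose and 3 fell (1 without KO-WT replicate 1), with a median of 0.13. Nodal, the ligand, stood at 8.84, 8.85, 8.83, 8.83 and 8.89 in KO-KO and at 9.49, 9.47, 9.80 and 9.54 in KO-WT. It was lower in every KO-KO library, by 0.73 on the log2 scale. Lefty2, a secreted inhibitor of Nodal and itself a target of the pathway, stood at 7.51, 7.29, 7.55, 7.605 and 7.41 in KO-KO and at 6.43, 6.33, 6.50 and 6.18 in KO-WT. Its libraries did not overlap, and it was higher by 1.11 ± 0.109; Lefty1 rose by 0.74, the inhibitory Smad7 by 0.73, and the ligand genes Gdf3 by 0.97 and Inhbb by 0.80. The receptor and transducer genes Tdgf1 (0.05), Smad2 (0.06) and Smad4 (0.04) did not pass the test.

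Among BMP signalling genes 7 of 17 fell and 2 rose, or 52.9% called against 42.8% of all genes tested. Id1, a target of the pathway and an inhibitor of helix-loop-helix factors, stood at 6.32, 6.35, 6.37, 6.20 and 6.70 in KO-KO and at 7.51, 7.95, 8.43 and 8.17 in KO-WT. Its libraries did not overlap, with a difference of -1.63 ± 0.185, and Id2 fell by 1.66. Id4 rose by 0.56, and the ligand Bmp4 (0.11) did not pass the test. In the Wnt list 15 of 36 rose and 8 fell. Wnt3, Wnt5b and Wnt6, counted among the 8, lay under the minimum for testing in at least 3 KO-KO libraries. The secreted inhibitors Notum (1.01) and Sfrp1 (0.94) and the receptor Fzd3 (0.55) rose. The ligand gene Wnt7b (-1.19) fell, and the target Axin2 (-0.12) did not pass the test. In the LIF and STAT3 list 5 of 18 rose and 8 fell, and the receptor genes Lifr (0.03) and Il6st (0.10) did not pass the test. FGF and ERK genes were higher in 6 and lower in 11 of 22, with 3 higher without KO-WT replicate 1.

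**Figure D3:**
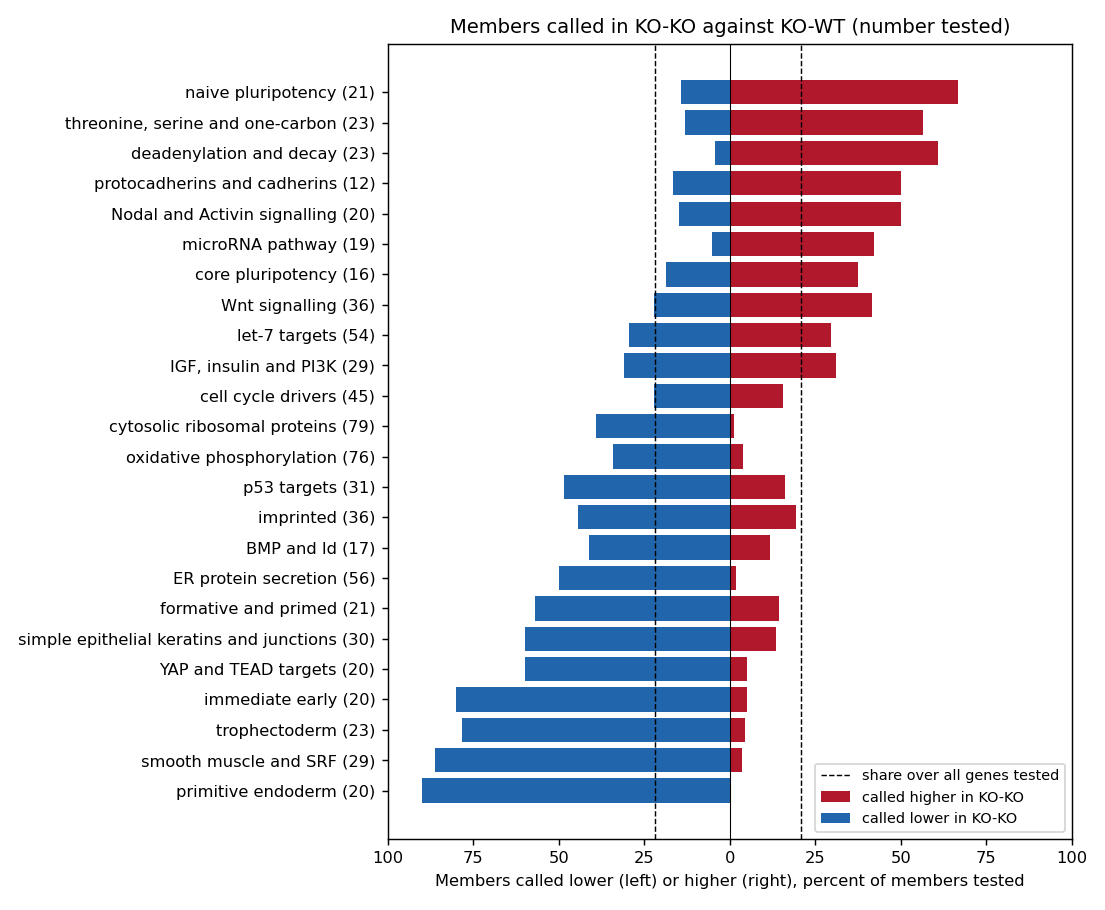
Percent of the members tested that were called higher (red, to the right) or lower (blue, to the left) in KO-KO for 24 gene lists, with the number tested in brackets and dashed lines at the shares over all genes tested, 20.8% higher and 22% lower. Bars for the trophectoderm, primitive endoderm, smooth muscle and SRF, and immediate early lists extend mainly to the left, and those for naive pluripotency, one-carbon and decay genes mainly to the right.

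Known let-7 targets had no common direction: 16 of 54 rose and 16 fell, the deleted Lin28a among them, and the median was 0.00. Col1a2, counted among those that fell, lay under the minimum for testing in at least 3 KO-KO libraries. Without KO-WT replicate 1 the number higher was 10. Hmga2, a chromatin protein and the best-known target, stood at 6.23, 6.28, 6.28, 6.29 and 6.32 in KO-KO and at 7.44, 7.45, 7.29 and 7.62 in KO-WT. The 5 KO-KO libraries were close together and below all KO-WT libraries, with a difference of -1.17 ± 0.0741. Prtg (protogenin, a surface receptor, -0.84) and Irs2 (an insulin receptor substrate, -0.77) fell. Igf2bp2 and Igf2bp3, mRNA-binding proteins, went the other way: Igf2bp2 stood at 10.09, 10.08, 10.10, 10.15 and 10.26 against 9.63, 9.56, 9.29 and 9.49. Igf2bp2 was higher in every KO-KO library, by 0.65, and Igf2bp3 by 0.60. The genes on both sides carry the same 8 letters in the 3′ UTR, shown in capitals with the 14 bases before it, from the longest-UTR transcript of GENCODE M21.
Hmga2: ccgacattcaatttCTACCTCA
Prtg: cctctgctgaatagCTACCTCA
Irs2: aaactaccacagtcCTACCTCA
Igf2bp2: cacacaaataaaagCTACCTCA
Igf2bp3: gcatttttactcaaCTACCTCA
Over the list, 32 of 54 members hold at least 1 such site; 9 of these rose and 11 fell (median -0.01), and of the 22 without a site 7 rose and 5 fell (median 0.09).

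The site was then sought in all 12542 tested genes with an annotated 3′ UTR. Of the 467 genes with at least 1 CTACCTCA, 129 rose (27.6%) and 107 fell (22.9%), with a median of 0.04; of the 12075 without it 21.1% rose and 22.7% fell, with a median of -0.00. The genes with a site have longer 3′ UTRs, with a median of 2472 against 1110 bases. With a trend for GC content and length removed the medians were -0.02 and -0.01. In that setting 121 of the 467 genes with a site were called higher and 131 lower. Of the 12075 without it, 2620 were called higher and 2868 lower. For comparison, AGCACTTA, the site of the stem cell microRNA miR-294-3p, was held by 433 genes, of which 23.8% rose and 14.1% fell. Of the genes without AGCACTTA 21.2% rose and 23.0% fell. Genes with it also have longer 3′ UTRs, with a median of 2860 against 1110 bases. For this site no values with the trend removed were computed, and the cause of the gap was not tested.

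Genes that make and use microRNAs were higher in 8 of 19 and lower only in Lin28a itself, with a median of 0.13. The called members made up 47.4%, against 42.8% of all genes tested. The number higher was 5 without KO-KO replicate 2 or KO-WT replicate 1, both of day 2, and the median was 0.03 after removal of the trend with GC content and length. Ago2, the slicing Argonaute, stood at 11.22, 11.23, 11.01, 11.005 and 11.08 in KO-KO and at 10.54, 10.75, 10.85 and 10.83 in KO-WT. It was higher by 0.37 in groups that did not overlap, or by 0.17 after that removal. Dicer1 (0.14) and the uridyltransferase genes Zcchc11 (0.10) and Zcchc6 (-0.07), which act with LIN28A on let-7 precursors, did not pass the test; Dicer1 was called higher in 6 alternatives. Genes of deadenylation and mRNA decay were higher in 14 of 23 and lower in 1 (Cnot8, -0.24), with a median of 0.19. Among those that rose were Smg5 (0.38) and Smg6 (0.34), which act in nonsense-mediated decay.

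Imprinted genes, expressed from 1 parental copy, were lower in 16 and higher in 7 of 36, with a median of -0.22. H19 and Igf2 share an imprinting control region on chromosome 7 and are known to be expressed from opposite parental copies. Igf2, a fetal growth factor, stood at 3.69, 3.49, 3.22, 3.27 and 3.35 in KO-KO and at 4.96, 5.12, 5.18 and 5.32 in KO-WT. It was low in both groups without overlap, and fell by 1.74 (difference of -0.95 with 16 units added), in the same direction as H19. On chromosome 6 Peg10 stood at 10.07, 9.75, 9.74, 9.66 and 9.81 in KO-KO and at 12.33, 12.45, 12.62 and 12.69 in KO-WT. Its libraries were more than 2 log2 units apart, and its neighbour Sgce, with 0 genes between them, fell by 1.52. Grb10, which restrains insulin and IGF signalling, rose by 1.04. Meg3 (-0.26, or -0.46 and called after removal of the trend with GC content and length), Peg3 (-0.11) and Gnas (-0.09) did not pass the test. Other adjacent genes that moved alike were Nanog and Dppa3 on chromosome 6, while medians per chromosome from 1 to 19 and X lay between -0.03 and 0.02.

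Lists of translation, secretion and metabolism moved by small amounts. Of 56 genes of protein secretion at the endoplasmic reticulum, a class of mRNAs known to be bound by LIN28A, 28 fell and 1 rose. The called members made up 51.8%, against 42.8% of all genes tested, and the median was -0.13. Hspa5 (-0.47), the main chaperone of that compartment, and Pdia6 (-0.41), a disulphide isomerase, fell. Of 79 cytosolic ribosomal protein genes 31 fell and 1 rose (40.5% called, against 42.8% of all genes tested), with a median of -0.11. Of 76 genes of oxidative phosphorylation 26 fell and 3 rose (38.2% called), with a median of -0.10. Those last medians differed among the 4 same-day pairs: -0.23, -0.08, 0.02 and -0.03 for ribosomal proteins on days 2 to 5, and -0.20, -0.08, 0.02 and -0.05 for oxidative phosphorylation. The day 2 pair was thus the lowest in both lists and the day 4 pair was above 0. Without KO-WT replicate 1 of that day, 16 ribosomal protein genes and 16 of oxidative phosphorylation were lower, with medians of -0.06 and -0.05; without KO-KO replicate 2 of that day the numbers were 18 and 17. Removal of the trend with GC content and length brought the medians to -0.04 and -0.05, with 19 ribosomal protein genes lower and 6 higher, and with 11 genes of oxidative phosphorylation higher in place of 3. Without KO-WT replicate 3, 1 gene of oxidative phosphorylation was higher. The rank correlation of the difference with transcript length over 14724 genes was 0.24, given as a description. In Trim71-intact cells the medians were 0.05 and 0.02, and that of the secretion list was -0.15.

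**Figure D4:**
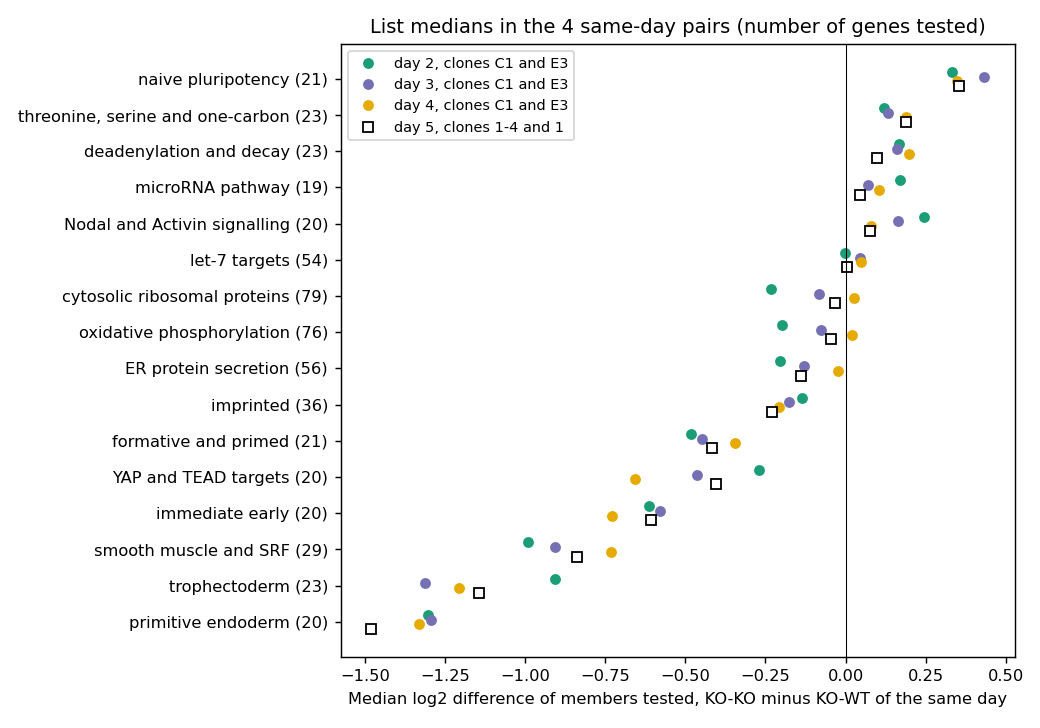
Median log2 difference of the members tested (horizontal axis) for 16 lists within the 4 same-day pairs of KO-KO and KO-WT libraries, with 1 symbol per pair and the day 5 pair, of clones 1-4 and 1, as open squares. The trophectoderm and primitive endoderm lists lie below 0 in all 4 pairs, and the ribosomal protein list spans 0, from -0.23 to 0.02.

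Serine and one-carbon metabolism rose in 13 of 23 members and fell in 3, with a median of 0.12. Mthfd2, the mitochondrial folate enzyme, stood at 10.35, 10.32, 10.32, 10.33 and 10.23 in KO-KO and at 9.67, 9.78, 9.89 and 9.80 in KO-WT. Its groups did not overlap, and it rose by 0.53; Shmt2 rose by 0.50 and the amino acid transporter gene Slc1a5 by 0.56. Phgdh (0.09), the first enzyme of serine synthesis, did not pass the test. The ATF4 and unfolded protein list, which holds Chac1, was split, with 13 higher and 9 lower of 34. In glycolysis 5 of 27 rose (3 without KO-KO replicate 4 or KO-WT replicate 3 or 4) and 6 fell. The called members made up 40.7%, against 42.8% of all genes tested. Pfkfb3 (-1.02) and the glucose transporter gene Slc2a1 (-0.80) fell and Pfkp rose by 0.70.

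Targets of p53 were lower in 15 of 31 and higher in 5, with a median of -0.15. Perp (-1.06), Cd80 (-0.99), Phlda3 (-0.86), the apoptosis gene Bbc3 (-0.83) and Mdm2 (-0.68), whose product degrades p53, fell. Cdkn1a, a cell-cycle inhibitor and a known TRIM71-bound mRNA, stood at 8.87, 8.96, 8.77, 8.85 and 8.87 in KO-KO and at 9.35, 9.24, 9.53 and 9.50 in KO-WT. It was lower in every KO-KO library, by 0.54. Cell-cycle drivers had 7 higher and 10 lower of 45, or 37.8% called against 42.8% of all genes tested. Neural genes had 7 higher and 4 lower of 17: Tubb3, a tubulin of neurons, stood at 8.65, 8.71, 8.80, 8.87 and 8.68 against 7.67, 7.78, 7.95 and 7.62 and rose by 0.99 without overlap, while Neurod1 (-0.75) fell and Sox1 (0.11) did not pass the test. Of 5 neural markers 3 were tested and 2 rose, with sums of 457 to 525 in KO-KO and 246 to 310 in KO-WT, or 53.5 to 62.8 and 45.9 to 62.3 without Tubb3; the part of neural cells was not tested. Germline genes had 7 higher and 10 lower of 28, Kit rising by 0.85 and Rhox6 falling by 1.61. Tex101, counted among the 10, lay under the minimum for testing in all KO-KO libraries.

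The same loss was measured in cells with Trim71 intact (5 WT-KO libraries, Trimfl/fl - Lin28a-/-, against 4 WT-WT libraries, Trimfl/fl - Lin28afl/fl), with the same clones on each side. These comparisons share no library, but they share clones and days and a common estimate of spread. There 42.4% of genes were called. H19 fell by 5.11 with Trim71 intact, Krt18 by 4.20, Cubn by 3.74 and Hmga2 by 1.16, and Nanog rose by 0.86. Of the 207 genes with at least a 2-fold difference in Trim71-null cells, 202 were called in the intact cells and all 207 had the same sign. Among genes of any size of difference, 4240 were called in both states, and 4229 of these had the same sign. List medians stood side by side as -1.31 and -1.24 for primitive endoderm, -1.13 and -1.04 for trophectoderm, -0.92 and -0.80 for smooth muscle and SRF genes, 0.41 and 0.40 for naive pluripotency, and -0.38 and -0.17 for formative genes, Trim71-null first.

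A test of the difference between the 2 responses (the interaction term, limma) called 3 genes, 0.02% of those tested. At an unadjusted p under 0.05 it held 2256 of the 14988 genes tested, a cutoff that about 5% would pass if no gene differed. The few calls therefore do not show that the 2 responses are equal. Ubald2, a gene of little-known function, stood at 9.59, 9.53, 9.57, 9.62 and 9.71 in KO-KO and at 9.95, 9.90, 9.90 and 9.997 in KO-WT, a difference of -0.33, and with Trim71 intact the difference was 0.19. Its interaction was -0.52 ± 0.0741 (adjusted p = 0.030). Arf5, a small GTPase of vesicle transport, differed by -0.17 in Trim71-null cells with overlapping groups and by 0.33 in intact cells (interaction -0.50 ± 0.0741, adjusted p = 0.030). Its Trim71-null call was lost without KO-WT replicate 1 (adjusted p = 0.080) or 2 (0.074). It was also lost after removal of the trend with GC content and length (-0.05, adjusted p = 0.45). Gm44364 fell by 1.05 in Trim71-null cells and differed by -0.22 in intact cells (interaction -0.83 ± 0.126, adjusted p = 0.030). The interaction called 0 genes without any 1 of KO-KO replicates 1 to 3, KO-WT replicates 1, 2 and 4, WT-KO replicates 3 to 5 or WT-WT replicates 3 and 4.

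**Figure D5:**
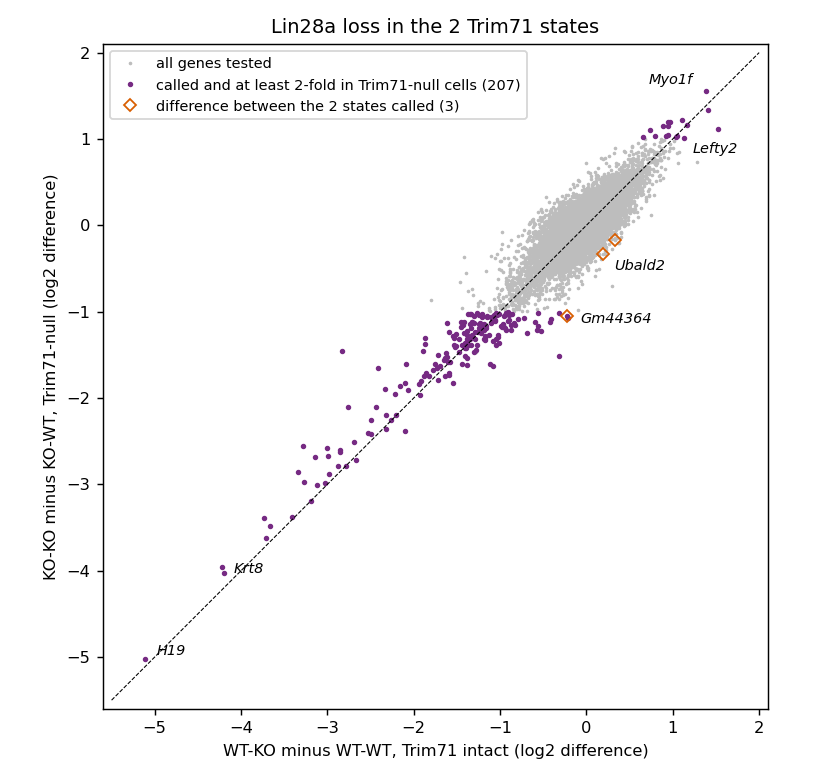
Log2 difference from Lin28a loss in Trim71-null cells (vertical axis) against that in Trim71-intact cells (horizontal axis), 1 point per gene tested, with the 207 genes of at least 2-fold difference in purple, the 3 genes called by the interaction as diamonds and a dashed line where both differences are equal. All 207 lie on the same side of 0 in both states.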

How the data were processed

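mRNA levels of mouse embryonic stem cells were taken from 1 table of 21685 gene symbols and 19 libraries. The authors deposited log2 values; scale and base were read from the values, and the labels name CASAVA 1.8, STAR and DESeq2 in the submitters' processing notes, with no role given. The genome build and annotation are not given in the sources used here. The deposited values hold no differences between days: the largest day term of any gene in a fit of genotype and day was 1.7e-08. KO-WT replicate 5, alone on its day, equalled the mean of the other 4 to within 1.5e-08 and was left out. Read depth is unknown, so no counting intervals are given.

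Genes at or above log2 of 10 in at least 4 of 18 libraries were tested, 69.1% of the table. The linear model was fitted in R 4.3.3 by limma 3.58.1, with moderated variances (eBayes with an intensity trend), for the 4 genotypes and a term for day, leaving 10 residual degrees of freedom; replicates are separate libraries of 2 clones per Lin28a state, so p-values measure the spread between these samples. All p-values of genes are two-sided and Benjamini-Hochberg adjusted over all genes tested, and a gene is called under 0.05. The labels give a day to each library, which pairs them; since day differences had been removed, correlating same-day libraries cannot test this. Fold sizes and ± values (SE) refer to the deposited log2 scale.

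The 46 gene lists, 44 of them with members tested, and the comparison itself were chosen with earlier results of these data known, so list counts and medians are descriptions without a test. Genes named are the 3 targeted ones, up to 14 higher and 14 lower genes of largest difference with a mean of at least log2 of 50, separate groups and 4 same-day pairs of 1 sign, up to 5 called members per list and those called by the interaction; other members were named after their values were seen. Predicted genes are counted and not named, except where the interaction called one, and 1 gene that the rule names is not reported here. Sequences came from RefSeq (GRCm38.p6) and GENCODE M21 tables, and GC content and length, for 98.2% of the genes tested, from GENCODE transcripts. The fit was tested on simulated data.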

Additional observations from a re-analysis of the deposited data

Results flagged for a closer look

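In 12 of 334 groups of 4 or 5 libraries, over the 167 genes named, 1 library stood apart from its group; chance alone does this in about 1 in 20 groups. KO-KO replicate 1 was high in Krt18 (7.24, the others 6.52 to 6.69), Tinagl1 (5.38, the others 4.62 to 4.81) and Anxa3 (5.46, the others 4.77 to 4.94), all of them genes that fell in KO-KO. KO-KO replicate 5 was low in H19 (5.22) and Mthfd2 (10.23) and high in Sox2 (11.66). The remaining single libraries were low in Tjp1 (10.09, KO-KO replicate 4), Tfap2c (9.42, KO-KO replicate 3), Igf2bp3 (8.15, KO-KO replicate 3), Pou3f1 (5.52, KO-KO replicate 2) and Zfp42 (9.07, KO-WT replicate 3), and high in Csrp1 (9.90, KO-WT replicate 1). The interaction test between Trim71-null and Trim71-intact cells called Arf5 (-0.50), Ubald2 (-0.52) and Gm44364 (-0.83). After removal of the trend with GC content and length, Arf5 (-0.34) and Ubald2 (-0.38) lost the call (limma adjusted p = 0.25 for each). Gm44364 (-0.64) kept it (adjusted p = 0.038). Without the intensity trend in eBayes the adjusted p was 0.068 for each of the 3.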

How the results depend on the processing

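Of the 167 genes named, 136 were called and 132 of these kept the call under every one of the 30 alternatives run that tested them, 18 of which left out 1 library; the 4 others were Trim71, Lin28b, Arf5 and Flna, and 0 genes changed sign among those called. Of the 31 named genes not called, 14 were called under 1 or more alternatives, most often Lama1 (13), Tead4 (10) and Dicer1 (6). With days 1 and 5 alone 2293 genes were called (1065 higher, 1228 lower) and with days 2 to 4 alone 3595 (1705 higher, 1890 lower), fewer libraries in each case; with days 2 to 4 alone 2323 were called in Trim71-intact cells. Without the replicate block, which is the day term, 8001 genes were called in Trim71-null and 7970 in Trim71-intact cells, and 208 with at least a 2-fold difference. Adding 16 units before the log left 102 genes with at least a 2-fold difference, 97 lower and 5 higher. The interaction called 0 genes with days 1 and 5 alone, 1 with days 2 to 4 alone, 1 after removal of the GC and length trend, 673 without the replicate block and 0 without the intensity trend in eBayes. Leaving out single libraries gave 5382 to 6590 called genes (2674 to 3215 higher, 2708 to 3375 lower), 200 to 217 with at least a 2-fold difference, 5384 to 6553 in Trim71-intact cells and 0 to 4 for the interaction. Under trimmed mean scaling 3563 genes were higher and 2874 lower, so which direction held more genes depended on the scaling, while 182 fell and 21 rose at least 2-fold. The medians of 33 of 44 lists kept their sign under all alternatives; the let-7 list turned to -0.02 after removal of the GC and length trend and to -0.01 without KO-WT replicate 3. Where a list had 1 member called in 1 direction, single settings moved that count. The list of smooth muscle and SRF genes without its annexin, S100 and galectin members was an alternative chosen after seeing the data. Except where given above, the cause of these changes was not tested.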

Other observations

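Several further lists were looked at. In the FGF and ERK list the members that fell most were Phlda1 (-1.17), an ERK-induced gene, and Fgfbp1 (-1.11), which releases FGFs from the matrix. Of 10 mesoderm genes 6 fell and 1 rose, among those that fell Snai1 (-0.70, or -0.26 with 16 units added), a repressor of E-cadherin. Snai1 and Wnt3, both counted among the 6, lay under the minimum for testing in at least 3 KO-KO libraries. With that minimum raised to log2 of 50, 1 mesoderm gene was called lower and 0 higher. Of 5 mesoderm markers 2 were tested and 1 fell, with sums of 36.7 to 40.1 units in KO-KO and 45.3 to 47.3 in KO-WT, and T and Mixl1 were below the minimum. Of 4 markers of blood and endothelium 2 were tested and 1 rose, with sums of 241 to 271 and 210 to 299, which overlap, and Cdh5 was below the minimum. The marker that rose was Cd68, at log2 levels of 7.86 to 7.95 in KO-KO and 7.52 to 7.66 in KO-WT. Ptprc did not pass the test but ran lower, at 2.90 to 4.84 in KO-KO and 4.62 to 6.68 in KO-WT, with overlap.

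Rhox9 (-1.42), a homeobox gene of placenta and germ cells, fell with Rhox6, which lies 2 genes away on chromosome X. Of 77 mitochondrial ribosomal protein genes 22 fell and 4 rose, or 33.8% called against 42.8% of all genes tested. The number higher was 2 without KO-WT replicate 2, and 7 after removal of the trend with GC content and length. In Trim71-intact cells 10 rose and 4 fell, and the interaction test called 0 of the 77. Of 30 Polycomb genes 9 fell and 3 rose (5 without KO-KO replicate 4 or under trimmed mean scaling), with 40% called. Genes of the IGF and insulin pathway were split, with 9 higher and 9 lower of 29. Of 4 genes on chromosome Y 3 fell, with a median of -0.33, and the median in Trim71-intact cells was -0.04.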
